A study of Mus musculus with 13 samples.

Results

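The genes Mpo, Elane, Prtn3, Ctsg, Prss57, Ms4a3, Cst7 and Ctsc, all known from the primary granules of early neutrophils or from the cells that make them, were followed through bulk RNA-seq of mouse bone marrow hematopoietic stem and progenitor cells (HSPCs). They were taken by gene symbol, and all 8 were found among the 55421 genes of the deposited tables. The libraries fell into 4 genotypes: double mutant, which the labels give as Setd2 knockout with Srsf2 mutated (n = 3), Srsf2 mutated (n = 3), Setd2 knockout (n = 2) and wild type (n = 2). The series title concerns methylation of the Srsf2 P95H protein by SETD2 in myelodysplastic syndrome, a clonal blood disease. The labels of 3 single-cell samples, not analysed here, name the alleles as Srsf2 P95H/+ and Setd2 fl/fl with Mx1-Cre, an interferon-inducible recombinase that pIpC turns on. Those cells were Lin- c-Kit+ and were taken 4 weeks after induction in a transplant model, where cells of the host can remain. For the bulk libraries the sort, the transplant, the time, the age and sex of the mice, and whether replicates came from separate mice are not given in the sources used here. The p-values therefore measure the spread between these libraries, which may be technical.

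Primary (azurophil) granules form at the promyelocyte stage, before the secondary and tertiary granules, and their genes are transcribed in granulocyte-monocyte progenitors and early neutrophils and then shut down. Myeloperoxidase, encoded by Mpo, makes hypochlorous acid from hydrogen peroxide and chloride. Neutrophil elastase (Elane), proteinase 3 (Prtn3), cathepsin G (Ctsg) and neutrophil serine protease 4 (Prss57) are serine proteases stored beside it. Cathepsin C (Ctsc), a cysteine protease, removes the N-terminal dipeptide that keeps these serine proteases inactive, and cystatin F (Cst7) inhibits cathepsin C and other cysteine cathepsins. Ms4a3 encodes a tetraspan membrane protein of granulocyte-monocyte progenitors and is not itself a granule enzyme. SETD2 trimethylates lysine 36 of histone H3 along transcribed genes, and SRSF2 is a splicing factor that binds exonic enhancers.

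Prss57, Prtn3 and Elane lie together on chromosome 10 (GRCm38, GENCODE M21), and the rest are on separate chromosomes. Prss57 lies at chr10:79781474-79790961 on the minus strand, Prtn3 at chr10:79874476-79883174 and Elane at chr10:79886247-79888215, both on the plus strand. Mpo lies at chr11:87793581-87804413 on the plus strand, Ctsg at chr14:56099881-56102574 on the minus strand and Ms4a3 at chr19:11629496-11640851 on the minus strand. Cst7 lies at chr2:150570415-150578944 and Ctsc at chr7:88278085-88310888, both on the plus strand. All 8 are protein-coding, and the counts cover their whole exonic length, untranslated regions included. Prtn3 overlaps Plppr3 on the opposite strand over 159 exonic bases. Plppr3 averaged 112 ± 2.76 CPM in double mutant cells (SD, n = 3), 177 ± 8.19 in Srsf2 mutated cells (n = 3), 195 ± 4.0 in Setd2 knockout cells (n = 2) and 195 ± 6.13 in wild type cells (n = 2). The strandedness of the libraries is not given in the sources used here, so reads of such antisense pairs cannot be told apart. Mpo and Prss57 overlap Gm11505 and Fstl3, which held at most 47 and 83 counts in a library.

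RefSeq promoters (GRCm38.p6) were found for 7 of the 8 genes, all but Prss57. For Mpo, Elane and Prtn3 the start used with these promoters lies inside the GENCODE gene span given above. The Prtn3 window lies wholly inside that span, and the Mpo and Elane windows partly. The 250 bases before the transcription start are shown for Mpo, the 3 serine proteases with an entry, and Ctsc, whose response to genotype went the other way. Capitals mark the core of PU.1 motifs (AGGAAGT, or ACTTCCT where the match is on the reverse strand). PU.1 is an ETS factor of myeloid cells.
Mpo (chr11:87793534-87793783, plus strand): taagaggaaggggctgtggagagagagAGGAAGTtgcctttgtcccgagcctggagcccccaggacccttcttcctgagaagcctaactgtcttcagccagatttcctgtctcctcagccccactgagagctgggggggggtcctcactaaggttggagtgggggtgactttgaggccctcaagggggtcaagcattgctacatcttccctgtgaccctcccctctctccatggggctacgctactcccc
Elane (chr10:79886062-79886311, plus strand): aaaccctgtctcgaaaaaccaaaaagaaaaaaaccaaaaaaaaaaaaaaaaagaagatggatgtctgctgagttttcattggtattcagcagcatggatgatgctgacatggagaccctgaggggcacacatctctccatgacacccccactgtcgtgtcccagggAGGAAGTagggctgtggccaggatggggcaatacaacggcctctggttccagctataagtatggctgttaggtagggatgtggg
Prtn3 (chr10:79879417-79879666, plus strand): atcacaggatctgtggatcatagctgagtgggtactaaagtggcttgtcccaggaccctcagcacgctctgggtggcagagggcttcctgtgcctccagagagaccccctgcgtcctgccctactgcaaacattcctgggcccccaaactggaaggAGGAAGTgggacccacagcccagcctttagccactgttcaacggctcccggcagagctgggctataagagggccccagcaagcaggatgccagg
Ctsg (chr14:56102575-56102824, minus strand): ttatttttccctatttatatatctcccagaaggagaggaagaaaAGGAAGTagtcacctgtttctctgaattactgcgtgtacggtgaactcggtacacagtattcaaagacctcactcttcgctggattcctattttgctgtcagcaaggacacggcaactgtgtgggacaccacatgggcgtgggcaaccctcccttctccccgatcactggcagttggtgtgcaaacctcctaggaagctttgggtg
Ctsc (chr7:88277835-88278084, plus strand): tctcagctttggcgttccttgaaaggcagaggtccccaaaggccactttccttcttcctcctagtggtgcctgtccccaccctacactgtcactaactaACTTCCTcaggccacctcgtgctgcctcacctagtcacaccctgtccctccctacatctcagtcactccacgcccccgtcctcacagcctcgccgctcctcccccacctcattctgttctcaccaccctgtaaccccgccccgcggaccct

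The PU.1 letters were present in 6 of the 7 promoters, searched on both strands from 250 bases before to 50 bases after the start, and in 9.35% of 32851 promoters of the same length. The match began 84 bases before the start in Elane, 94 in Prtn3, 223 in Mpo, 206 in Ctsg and 63 in Cst7, and 151 in Ctsc, where it lay on the reverse strand; the Ms4a3 window had none. C/EBP letters (TTGCNNAA, or TTNNGCAA on the reverse strand) were in 2 of 7 promoters, those of Cst7 and Ms4a3, against 10.8% of all. RUNX letters (TGTGGT, or ACCACA) were in those of Cst7 and Ctsg, against 16.8% of all. The short MYB letters (AACNG, or CNGTT) were in 6 of 7 and in 80.3% of all promoters, and the GFI1 letters (AAATCA, or TGATTT) in 0 of 7 and in 14.0% of all. No match overlapped another. These matches describe letters, not bound sites. Ctsc, which responded in the other direction, had the PU.1 and MYB letters too.

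**Figure D1:**
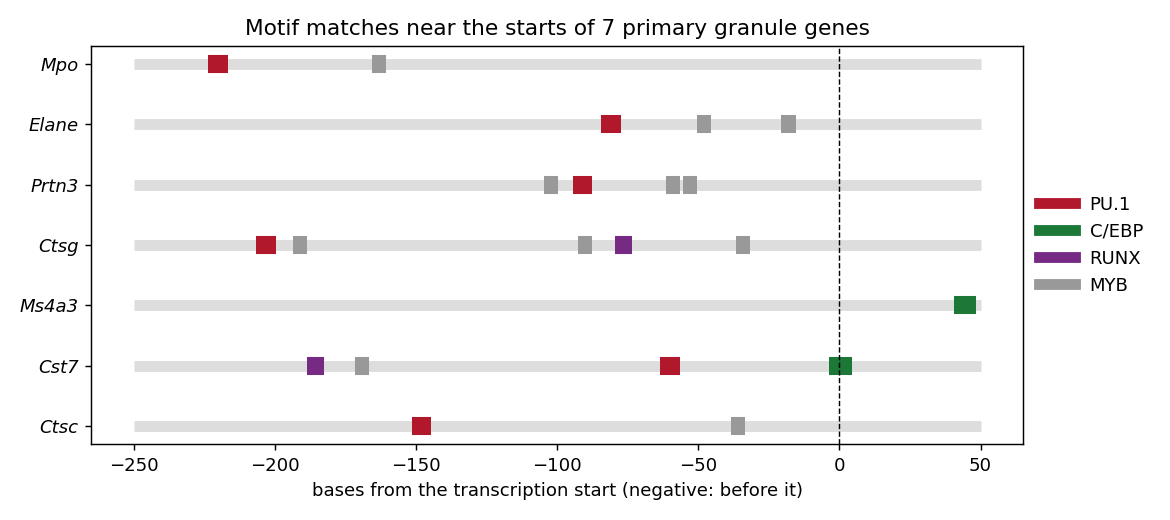
Positions of motif matches in the promoters of 7 genes, in bases from the transcription start, with each grey bar running from 250 bases before to 50 after it. PU.1 matches (red) lie between 57 and 223 bases before the start in 6 genes, and Ms4a3 has none.

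Library totals ran from 32117387 to 50445434 counts. Counts of the 8 genes ran from 1636 (Prss57, double mutant replicate 1) to 506880 (Mpo, wild type replicate 2). Levels below are read counts scaled to library size (CPM) with TMM factors unless FPKM is named, which divides also by gene length. Tests are edgeR quasi-likelihood tests over 19289 genes in 1 fit of the 10 libraries, and a gene is called at an adjusted p (Benjamini-Hochberg over all tested genes) under 0.05.

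Per length, Elane was the most abundant of the 8 transcripts in each genotype. It averaged 1879.7 ± 30.2 FPKM in double mutant cells, 2364 ± 199 in Srsf2 mutated cells, 4263 ± 106 in Setd2 knockout cells and 6359 ± 390.1 in wild type cells (SD, n = 3, 3, 2 and 2). Mpo came next with 875 ± 18.7, 1288 ± 71.1, 2204 ± 123 and 3261 ± 11.03 FPKM in the same genotypes. Prtn3 and Ctsg followed, and their library values overlapped in double mutant cells, where Prtn3 had 645 to 687 FPKM and Ctsg 633 to 666. Ms4a3 and Cst7 came after them in each genotype. The bottom of the order changed with genotype. Ctsc averaged 25.5 ± 0.834 FPKM in double mutant cells, above Prss57 with 17.5 ± 0.358. In wild type cells it was the lowest of the 8, with 12.3 ± 0.381 FPKM against 87.0 ± 2.21 for Prss57.

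Mpo, the peroxidase, had 3114, 3193 and 3075 CPM in the double mutant libraries, 4085, 4164 and 4631 in the Srsf2 mutated ones, 6633 and 7220.5 in the Setd2 knockout ones and 11896 and 11922 in the wild type ones. The 4 genotypes did not overlap, and double mutant cells were lowest. Among the serine proteases, Elane had 1971, 1917 and 1903 CPM in double mutant, 2184, 2088 and 2526 in Srsf2 mutated, 3773 and 3929.7 in Setd2 knockout and 6938 and 6406 in wild type libraries. The genotypes did not overlap, though the highest double mutant value, 1971 CPM, lay close to the lowest Srsf2 mutated value, 2088 CPM.

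Prtn3 had 1246, 1213 and 1166 CPM in double mutant, 1703, 1658 and 2096 in Srsf2 mutated, 2213 and 2444 in Setd2 knockout and 4509 and 5127 in wild type libraries. Ctsg had 685, 681 and 717 CPM in double mutant, 977, 859.7 and 1019 in Srsf2 mutated, 980.1 and 1108 in Setd2 knockout and 1621 and 1833 in wild type libraries. Ctsg thus overlapped between Srsf2 mutated and Setd2 knockout cells, while Prtn3 did not. Prss57, the least abundant of these proteases, had 53.3, 51.6 and 51.1 CPM in double mutant, 70.7, 73.4 and 77.3 in Srsf2 mutated, 128 and 133 in Setd2 knockout and 268 and 259.9 in wild type libraries. Relative to its level it had the widest range of genotype means of the 8 genes, and no genotypes overlapped.

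Ms4a3 had 204, 202 and 197 CPM in double mutant, 268, 226 and 300.3 in Srsf2 mutated, 321 and 343 in Setd2 knockout and 711 and 699.8 in wild type libraries, with no overlap of genotypes. Cst7, the cathepsin inhibitor, had 60.9, 59.5 and 59.2 CPM in double mutant, 112, 97.5 and 119 in Srsf2 mutated, 100.1 and 102 in Setd2 knockout and 258 and 247 in wild type libraries. The Setd2 knockout and Srsf2 mutated values of Cst7 overlapped. Ctsc, the activating protease, had 153, 150.2 and 160.0 CPM in double mutant, 113, 104 and 105 in Srsf2 mutated, 66.7 and 64.5 in Setd2 knockout and 77.3 and 74.5 in wild type libraries. For Ctsc the double mutant was the highest genotype and the Setd2 knockout the lowest.

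**Figure D2:**
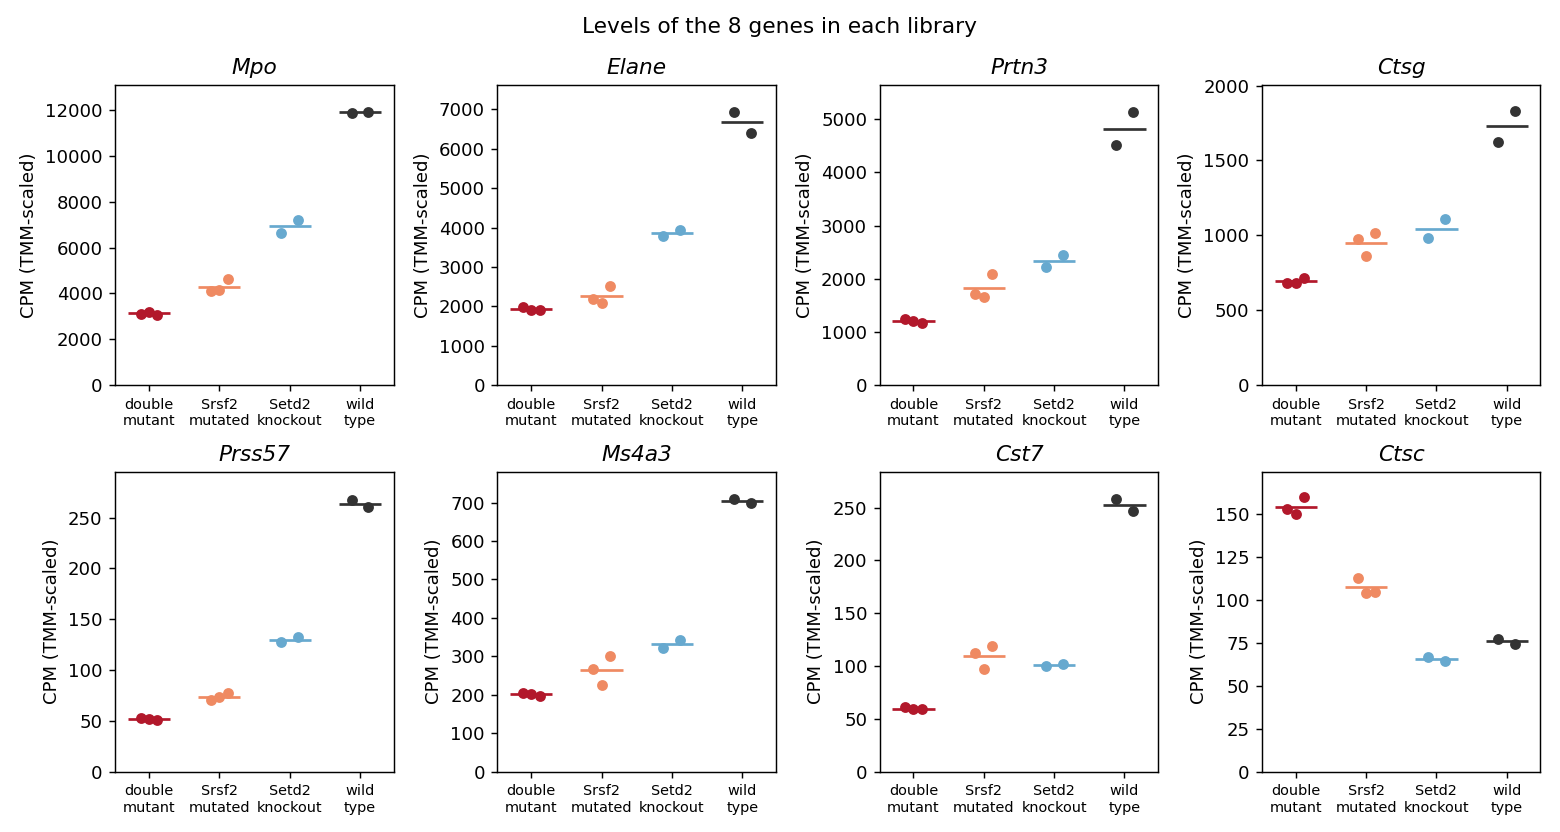
TMM-scaled CPM of each gene in each of the 10 libraries (points) with the genotype mean (line), on linear axes from 0. In 7 genes the wild type libraries are highest and the double mutant libraries lowest, while Ctsc is highest in the double mutant, at 150.2 to 160.0 CPM.

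Double mutant cells set against wild type cells showed 7 genes lower and 1 higher of the 8, where 63.0% of the tested genes were called, 29.5% lower and 33.5% higher. Prss57 was 5.07 times lower (log2 fold change -2.34, SE 0.067, adjusted p = 1.1e-13) and Cst7 4.22 times lower (-2.08, SE 0.079, adjusted p = 3.4e-12). Prtn3 was 3.99 times, Mpo 3.81 times, Ms4a3 3.51 times and Elane 3.46 times lower, with log2 fold changes of -1.995, -1.93, -1.81 and -1.79 and standard errors of 0.093, 0.067, 0.091 and 0.076. Ctsg fell least, 2.49 times (-1.31, SE 0.082, adjusted p = 1.3e-09). Ctsc was 2.03 times higher (1.02, SE 0.071, adjusted p = 4.5e-09). The median log2 fold change of the 8 was -1.87, against 0.13 over all tested genes.

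In Srsf2 mutated cells against wild type cells, again 7 of the 8 were called lower and 1 higher, where 56.3% of the tested genes were called, 27.8% lower and 28.5% higher. Their median log2 fold change was -1.41, against 0.08 over all tested genes. Prss57 was lowest in relative terms, 3.57 times below wild type (-1.84, SE 0.066), followed by Elane (-1.56, SE 0.076), Mpo (-1.47, SE 0.066), Ms4a3 (-1.41, SE 0.090), Prtn3 (-1.41, SE 0.092), Cst7 (-1.20, SE 0.078) and Ctsg (-0.86, SE 0.082). Ctsc was 1.41 times higher (0.50, SE 0.070, adjusted p = 1.8e-05).

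For Setd2 knockout against wild type, all 8 were called lower, where 38.6% of the tested genes were called, 19.9% lower and 18.7% higher. The median was -0.91, against 0.04 over all tested genes. Here Cst7 fell most, 2.50 times (-1.32, SE 0.088, adjusted p = 2.1e-08), and Ms4a3 (-1.09, SE 0.101), Prtn3 (-1.05, SE 0.103) and Prss57 (-1.02, SE 0.074) each fell about as far as one another. Elane (-0.79, SE 0.085), Mpo (-0.78, SE 0.074) and Ctsg (-0.73, SE 0.092) fell less. The call on Ctsc (-0.21, SE 0.076, adjusted p = 0.039) did not hold: under library totals without a scaling factor the value was 0.01 (adjusted p = 0.97), and leaving out either library of either genotype gave adjusted p-values of 0.068 to 0.23. Its FPKM, which uses such totals, was 12.5 and 12.1 in the Setd2 knockout libraries, against 12.5 and 11.99 in the wild type libraries. These 3 comparisons share the wild type libraries.

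Between the single mutants, Srsf2 mutated cells had 5 genes lower and 1 higher than Setd2 knockout cells, where 46.3% of the tested genes were called, 23.2% lower and 23.1% higher. Prss57 (-0.82, SE 0.066), Elane (-0.77, SE 0.076) and Mpo (-0.69, SE 0.067) differed most, and Prtn3 (-0.36, SE 0.093) and Ms4a3 (-0.33, SE 0.091) less. Without Setd2 knockout replicate 2 the adjusted p-values of Prtn3 and Ms4a3 were 0.060 and 0.072. Ctsc was 1.64 times higher in Srsf2 mutated cells (0.71, SE 0.071, adjusted p = 5.6e-07). Cst7 (0.12, SE 0.080, adjusted p = 0.24) and Ctsg (-0.13, SE 0.083, adjusted p = 0.21) were not called. Cst7 was called without Srsf2 mutated replicate 2 (adjusted p = 0.026), and Ctsg under library totals (adjusted p = 0.028).

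The effect of losing Setd2 was measured on both Srsf2 backgrounds, from different libraries. Double mutant cells had 7 of the 8 genes lower and 1 higher than Srsf2 mutated cells, where 33.8% of the tested genes were called, 15.9% lower and 17.8% higher. Their median was -0.46, against 0.00 over all tested genes. Cst7 fell most, 1.83 times (-0.87, SE 0.072, adjusted p = 9.9e-08), then Prtn3 (-0.59, SE 0.084), Prss57 (-0.51, SE 0.061), Mpo (-0.46, SE 0.060), Ctsg (-0.45, SE 0.075) and Ms4a3 (-0.40, SE 0.082). Elane had the smallest fall (-0.23, SE 0.069, adjusted p = 0.016), and without double mutant replicate 2 or 3 its adjusted p was 0.061 or 0.065. Ctsc was 1.44 times higher in double mutant cells (0.52, SE 0.062, adjusted p = 5.5e-06).

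The difference between these effects is the interaction, the log2 fold change for Setd2 loss with mutated Srsf2 minus that with wild type Srsf2. It was called above 0 for 7 of the 8 genes, where 31.9% of the tested genes were called, 16.7% above 0 and 15.2% below. The median was 0.49, against -0.07 over all tested genes. Ctsc (0.74, SE 0.098, adjusted p = 2.8e-05), Ms4a3 (0.69, SE 0.130, adjusted p = 0.00064), Elane (0.56, SE 0.109, adjusted p = 0.00087) and Prss57 (0.51, SE 0.095, adjusted p = 0.00058) had the largest values. Prtn3 (0.46, SE 0.132, adjusted p = 0.014), Cst7 (0.45, SE 0.113, adjusted p = 0.0062) and Mpo (0.32, SE 0.095, adjusted p = 0.016) were also called, and Ctsg was not (0.27, SE 0.118, adjusted p = 0.094). For the 7 genes other than Ctsc a positive value goes with a smaller fall on the mutated background. The log2 fold changes of the single mutants against wild type summed to -2.86 for Prss57 and -2.25 for Mpo, while the double mutant reached -2.34 and -1.93. For Ctsc they summed to 0.29, and the double mutant reached 1.02. This count depended on scaling: with library totals, which moved the median interaction of all tested genes by -0.32, only Ctsc and Ms4a3 were called. Without Setd2 knockout replicate 1, 4 were called.

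**Figure D3:**
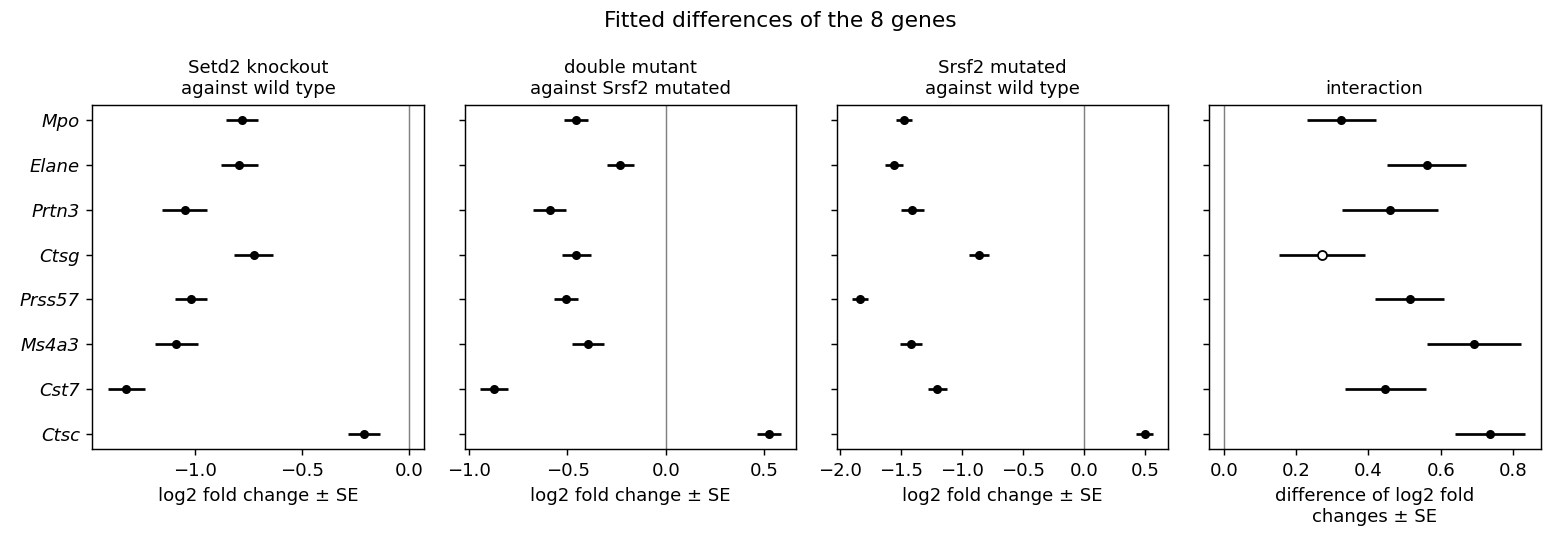
Log2 fold change (point) with its standard error (bar) for each gene for Setd2 loss on each Srsf2 background and for mutated Srsf2 against wild type, with the interaction at the right, where the open circle (Ctsg) did not pass an adjusted p of 0.05. The horizontal scales differ between panels; Ctsc lies above 0 in all but the Setd2 knockout panel.

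Double mutant cells against Setd2 knockout cells gave 7 genes lower and 1 higher, where 51.8% of the tested genes were called, 25.8% lower and 26.0% higher. Prss57 (-1.32, SE 0.067), Mpo (-1.15, SE 0.066) and Elane (-0.997, SE 0.076) fell most. Prtn3 (-0.95, SE 0.092), Cst7 (-0.76, SE 0.079), Ms4a3 (-0.72, SE 0.091) and Ctsg (-0.59, SE 0.083) fell less, and Ctsc was 2.35 times higher (1.23, SE 0.072, adjusted p = 6.4e-10). Fewer early neutrophils in a library and less of these RNAs per cell cannot be told apart in bulk samples, here and in the comparisons above.

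Ratios between genes within a library do not depend on scaling. Ctsc counts were 2.51, 2.52 and 2.71 times those of its inhibitor Cst7 in the double mutant libraries, 1.01, 1.07 and 0.878 times in the Srsf2 mutated ones, 0.666 and 0.633 times in the Setd2 knockout ones and 0.2997 and 0.302 times in the wild type ones. The 4 genotypes did not overlap. In double mutant cells against wild type Ctsc was higher and Cst7 lower, while in Setd2 knockout cells only the fall of Cst7 held under every scaling, and between the single mutants only Ctsc was called. Ctsg held its level better than Elane did wherever Srsf2 was mutated. The ratio of Ctsg to Elane counts was 0.347 to 0.377 in double mutant and 0.403 to 0.448 in Srsf2 mutated libraries, against 0.2598 and 0.282 in Setd2 knockout and 0.234 and 0.286 in wild type libraries. Elane to Prtn3 went another way, 1.58 to 1.63 in double mutant, 1.21 to 1.28 in Srsf2 mutated, 1.61 and 1.705 in Setd2 knockout, and 1.25 and 1.54 in wild type libraries. Groups of 2 and 3 libraries cannot reach 0.05 in a two-sided exact permutation test, so these ratios are given as values only. Together the 8 genes took 0.712% ± 0.0081 of all counts in double mutant, 1.02% ± 0.072 in Srsf2 mutated, 1.61% ± 0.080 in Setd2 knockout and 2.48% ± 0.0072 in wild type libraries.

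**Figure D4:**
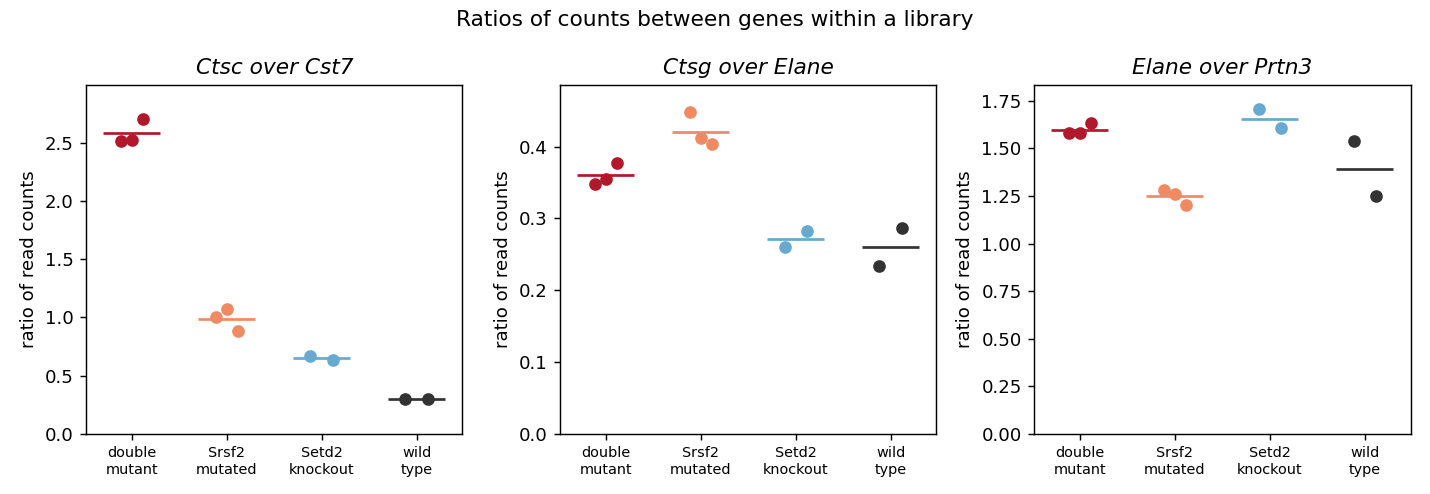
Ratios of read counts of 2 genes within each library (points) and the genotype means (lines), on axes from 0. Ctsc over Cst7 separates the 4 genotypes, at 2.51 to 2.71 in the double mutant and 0.2997 to 0.302 in wild type, and Ctsg over Elane is higher in both genotypes with mutated Srsf2.

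The transcription factors listed as regulators of granule genes (13, all tested) were more often lower than higher. In double mutant cells against wild type cells 10 were called lower and 3 higher, in Srsf2 mutated cells 10 lower and 2 higher, in Setd2 knockout cells 9 lower and 3 higher, and in double mutant against Srsf2 mutated cells 8 lower and 4 higher. Of all tested genes, 29.5% and 33.5%, 27.8% and 28.5%, 19.9% and 18.7%, and 15.9% and 17.8% were, in that order. Gata1, also an erythroid marker, was among those higher in double mutant (0.69) and Setd2 knockout cells (0.90) against wild type. Cebpa, the C/EBP factor of granulocyte-monocyte progenitors, averaged 101 ± 0.780 CPM in double mutant, 148 ± 15.8 in Srsf2 mutated, 181 ± 9.21 in Setd2 knockout and 347 ± 9.61 in wild type cells. Its log2 fold changes were -1.78 (SE 0.079) in double mutant, -1.23 (SE 0.079) in Srsf2 mutated and -0.94 (SE 0.089) in Setd2 knockout cells against wild type, with an adjusted p of at most 8.1e-07 in each. Gfi1, a repressor needed for neutrophil differentiation, averaged 42.9 ± 2.22, 49.3 ± 2.12, 135 ± 3.86 and 210.0 ± 6.30 CPM in the same order of genotypes. Spi1, which encodes PU.1, averaged 299 ± 5.52, 263 ± 19.1, 179 ± 9.28 and 353 ± 46.2 CPM and was thus lowest in Setd2 knockout cells. Cebpe, the factor of secondary granule genes, fell by 1.08, 1.48 and 1.48 on the log2 scale in double mutant, Srsf2 mutated and Setd2 knockout cells against wild type. Myb fell by 1.05 and 0.52 in double mutant and Srsf2 mutated cells and was higher by 0.30 in Setd2 knockout cells. In double mutant and Srsf2 mutated cells Klf4 was higher by 2.0 and 2.37 and Cebpb by 1.48 and 0.74 on the log2 scale.

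Gene products that handle the granule proteins did not move as 1 group. Of 6 genes for the folding and cleavage of myeloperoxidase, 4 were lower and 1 higher in double mutant cells against wild type, 3 and 2 in Srsf2 mutated cells, and 3 and 0 in Setd2 knockout cells. The last count was 5 without wild type replicate 2 or without Srsf2 mutated replicate 3. Calr, the chaperone that binds the myeloperoxidase precursor, averaged 1506 ± 18.6 CPM in double mutant, 2099.5 ± 72.3 in Srsf2 mutated, 1975 ± 64.9 in Setd2 knockout and 2696 ± 28.0 in wild type cells. Furin, a proprotein convertase, was higher by 0.56 and 0.50 in double mutant and Srsf2 mutated cells and lower in Setd2 knockout cells (-0.46). Of 15 inhibitors of the serine proteases 7 were tested, and 7 had no count in any library. Serpinb1a, a cytosolic inhibitor of elastase, cathepsin G and proteinase 3, averaged 229 ± 12.7, 239 ± 26.7, 303 ± 6.23 and 585 ± 19.5 CPM in double mutant, Srsf2 mutated, Setd2 knockout and wild type cells, lower in each mutant. Slpi, a secreted inhibitor of elastase and cathepsin G, averaged 93.0 ± 1.78, 61.3 ± 8.40, 21.9 ± 3.58 and 35.6 ± 8.31 CPM in the same order. In all, 5 of the 7 were higher and 1 lower in double mutant cells against wild type (2 and 1 without wild type replicate 2), 3 and 1 in Srsf2 mutated cells, and 0 and 4 in Setd2 knockout cells. Over all tested genes 33.5% were higher and 29.5% lower in double mutant cells against wild type. The shares were 28.5% and 27.8% in Srsf2 mutated cells, and 18.7% and 19.9% in Setd2 knockout cells.

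Other contents of azurophil granules and lysosomes (15 tested) were mostly lower in the single mutants. Against wild type, 3 were higher and 6 lower in double mutant cells, 2 and 11 in Srsf2 mutated cells, and 0 and 11 in Setd2 knockout cells, and against Srsf2 mutated cells 8 were higher and 2 lower in double mutant cells. Of all tested genes, 33.5% and 29.5%, 28.5% and 27.8%, 18.7% and 19.9%, and 17.8% and 15.9% were, in that order. Cd63, a tetraspanin of the azurophil granule membrane, averaged 184 ± 7.55 CPM in double mutant, 179 ± 19.00 in Srsf2 mutated, 163 ± 2.54 in Setd2 knockout and 357 ± 3.19 in wild type cells. Lyz2, lysozyme, which is stored in several granule types, averaged 4399 ± 71.7, 1920.1 ± 198, 766 ± 29.7 and 1953 ± 361 CPM. It was higher in double mutant cells, unlike the serine proteases among the 8 genes and like Ctsc. Glb1, a lysosomal galactosidase, was 1.37 lower on the log2 scale in double mutant cells against wild type (SE 0.078).

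Of 16 other genes of early neutrophils and their progenitors, 2 were higher and 10 lower in double mutant cells against wild type, 0 and 15 in Srsf2 mutated cells, and 0 and 16 in Setd2 knockout cells. Against Srsf2 mutated cells, 8 were higher and 5 lower in double mutant cells. Shares over all tested genes were 33.5% and 29.5%, 28.5% and 27.8%, 18.7% and 19.9%, and 17.8% and 15.9%, in that order. Gstm1, a glutathione transferase, fell by 1.93, 1.37 and 0.79 on the log2 scale in double mutant, Srsf2 mutated and Setd2 knockout cells against wild type. Csf3r, the receptor of granulocyte colony-stimulating factor, and Mgst1, a microsomal transferase, had higher levels in double mutant than in Srsf2 mutated cells (log2 fold changes 1.31 and 1.11). Fcnb, ficolin B, was 0.92 higher in the same comparison and averaged 216 ± 6.46 CPM in double mutant, 114 ± 14.3 in Srsf2 mutated, 213 ± 12.8 in Setd2 knockout and 465 ± 82.7 in wild type cells. Gstm1 and Nkg7 were lower in that comparison (-0.56 and -0.36), as the primary granule genes other than Ctsc were. The median of the 16 was 0.22, against -0.46 for the 8 primary granule genes and 0.00 over all tested genes; the difference between the lists was not tested.

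Secondary and tertiary granule genes, which are made later in neutrophil maturation, were higher where the 7 primary granule genes were lowest. Of 16 tested, 13 were higher and 0 lower in double mutant cells against wild type, 4 and 8 in Srsf2 mutated cells, and 0 and 16 in Setd2 knockout cells. Against Srsf2 mutated cells, all 16 were higher in double mutant cells, with a median log2 fold change of 1.08 against -0.46 for the 8 primary granule genes. The interaction was above 0 for 16 of 16, with a median of 2.602. Higher and lower shares over all tested genes were 33.5% and 29.5%, 28.5% and 27.8%, 18.7% and 19.9%, and 17.8% and 15.9%, in that order. For the interaction 16.7% of all tested genes were called above 0. Retnlg, a secreted resistin-like protein, averaged 1419 ± 19.3 CPM in double mutant, 179 ± 23.1 in Srsf2 mutated, 12.8 ± 0.823 in Setd2 knockout and 22.3 ± 3.196 in wild type cells. Mmp8, neutrophil collagenase, averaged 766 ± 5.51, 159 ± 3.95, 16.3 ± 0.497 and 25.2 ± 2.43 CPM, and Mmp9, gelatinase B, 1101 ± 24.4, 315 ± 13.7, 49.6 ± 0.895 and 100.1 ± 14.7 CPM. Retnlg, Mmp8 and Mmp9 were higher in Srsf2 mutated cells than in wild type, while Ngp (-0.47) and Lcn2 (-0.28) were among the 8 lower there. Ngp averaged 7254 ± 47.5, 4304 ± 427, 1762 ± 23.4 and 5963 ± 1396 CPM in the same order.

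**Figure D5:**
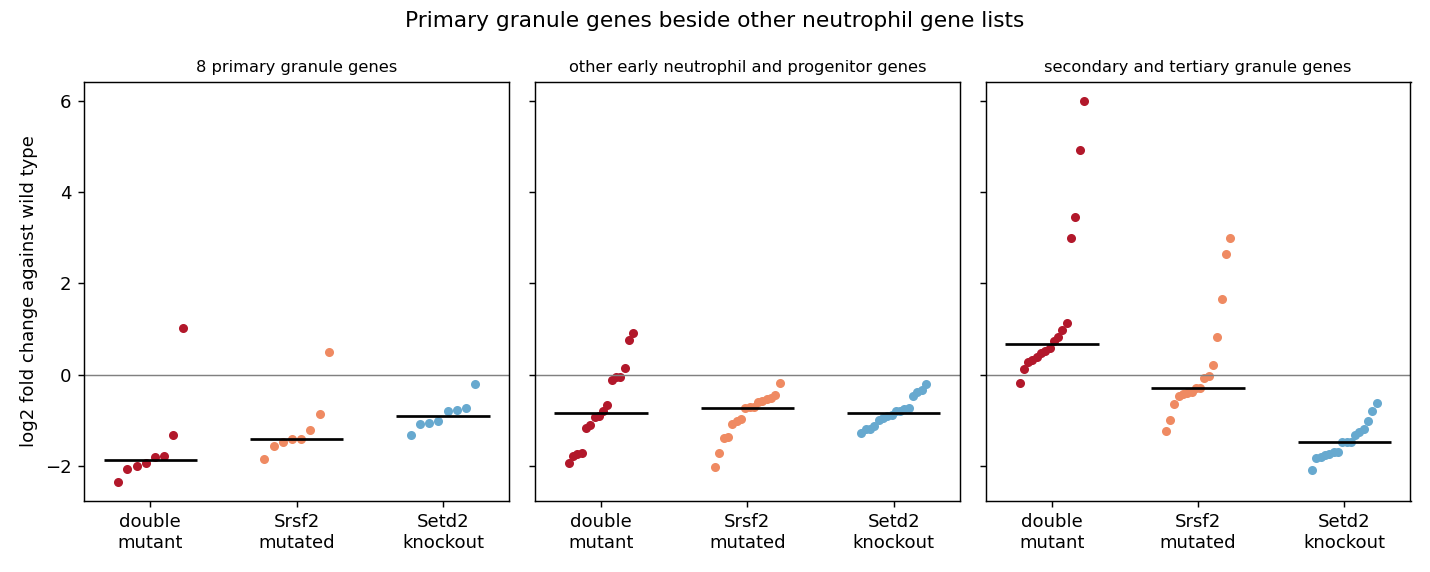
Log2 fold change against wild type of each gene (points, sorted) in 3 lists, with the list's median (black line), for double mutant, Srsf2 mutated and Setd2 knockout cells. In double mutant cells the primary granule genes have a median of -1.87 and the secondary and tertiary granule genes one of 0.67, and in Setd2 knockout cells both medians are below 0.

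Summed levels of markers of other cell types differed between genotypes beside these results. Sums of markers are CPM of the library total, without TMM factors. The sum of 8 late neutrophil markers, each also in the list of secondary and tertiary granule genes, was 21187 to 21385 CPM in double mutant, 10845 to 12223 in Srsf2 mutated, 4292 to 4522 in Setd2 knockout and 9476 to 13993 in wild type libraries. The sum of 8 erythroid markers was 9489 to 10076, 2847 to 3463, 526 to 529 and 151 to 157 CPM in the same order, and in both genotypes with mutated Srsf2 most of it was Hba-a1, which averaged 6749 CPM in double mutant and 2374 in Srsf2 mutated cells. All 8 erythroid markers were higher in double mutant and in Setd2 knockout cells than in wild type, but in Srsf2 mutated cells 4 were higher and 2 lower, Klf1 (-1.26) and Gata1 (-0.62). The sum of 8 B lymphoid markers was 263 to 277, 1070 to 1108, 95.8 to 96.0 and 99.8 to 115. Mast cell and basophil markers (8) summed to 427 to 435, 1002 to 1169, 425 to 427 and 354 to 365 CPM, and eosinophil markers (6) to 1654 to 1709, 1318 to 1542, 166 to 179 and 759 to 887. In double mutant cells against wild type Cpa3 (-0.39) and Gata2 (-0.63) were lower, while Fcer1a, Mcpt8, Cma1, Prss34 and Mcpt4 were higher. Epx was lower there (-0.44) and in Srsf2 mutated cells (-0.33), while Prg2, Prg3, Ear1 and Ear2 were higher in both. Monocyte and macrophage markers (8) summed to 1009 to 1031, 850.001 to 856, 1056 to 1099.96 and 608 to 632 CPM. In Setd2 knockout cells the monocyte sum held 401 CPM of Ccr2, against 65.1 in wild type cells, and 2 of the 8 markers were called higher and 2 lower; 8 were higher in double mutant and 5 in Srsf2 mutated cells, with 0 lower. Megakaryocyte markers (6) summed to 88.9 to 96.8, 176 to 192, 186 to 190.3 and 200.3 to 201 CPM. Most of this sum was Itga2b, which averaged 69.2, 148, 101 and 133 CPM in the same order. Among these 6, Itga2b alone had a higher mean in Srsf2 mutated than in wild type cells. Vwf averaged 11.1 CPM in Srsf2 mutated and 39.1 in wild type cells, and Pf4 9.51 and 30.4. T and NK markers (7) summed to 146 to 147, 174 to 211, 228 to 247 and 360.4 to 394 CPM. Most of the T and NK sum was Nkg7, which is also in the list of early neutrophil genes; in double mutant cells against wild type 5 of these 7 markers were higher and Nkg7 alone was lower. Hba-a1, Klf1, Gata1, Ccr2, Cpa3, Gata2, Epx, Itga2b, Vwf and Pf4 were singled out after their values were seen. Beside the counts of markers, 33.5% of all tested genes were higher and 29.5% lower in double mutant cells against wild type. These shares were 28.5% and 27.8% in Srsf2 mutated cells, and 18.7% and 19.9% in Setd2 knockout cells. All these markers were tested and none was at 0 throughout. Stem and progenitor markers (8) summed to 373 to 385, 499.65 to 519, 862 to 889 and 785 to 869 CPM. Kit, a defining marker of HSPCs, averaged 163 ± 4.04 CPM in double mutant, 206 ± 12.7 in Srsf2 mutated, 444 ± 14.6 in Setd2 knockout and 422 ± 33.7 in wild type cells. The part of cell makeup in the levels of the primary granule genes was not tested.

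The sex-linked genes and the targeted genes were checked against the labels. The Y-linked gene Ddx3y averaged 124 ± 4.39 CPM in double mutant and 111 ± 7.91 in Srsf2 mutated cells, and had 0 counts in each Setd2 knockout and wild type library, which allows at most 0.0708 CPM of the library total (3 counts). Xist averaged 7.41 ± 0.565, 1.78 ± 0.655, 0.598 ± 0.0517 and 485 ± 19.7 CPM in double mutant, Srsf2 mutated, Setd2 knockout and wild type cells. Sex-linked expression and genotype cannot be told apart. Setd2 averaged 130.4 ± 0.870, 197 ± 34.8, 222 ± 12.9 and 152 ± 9.63 CPM in the same order. Whole-gene counts check neither an exon deletion nor a point mutation, so the genotypes rest on the labels.

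The authors' deposited tables gave the 8 genes close values in both comparisons with wild type, for example -0.78 for Mpo in Setd2 knockout and -1.45 in Srsf2 mutated cells. In the authors' deposited table for double mutant against Srsf2 mutated cells, none of the 8 passed, with adjusted p-values of 0.066 (Cst7) to 0.89 (Elane) and a log2 fold change of -0.53 with a standard error of 0.62 for Mpo. The mean normalised count of that authors' deposited table was 0.927 to 13.9 times the mean of its own listed libraries for the 8 genes. In the authors' deposited tables against wild type this ratio was 0.568 to 1.46 for Setd2 knockout and 0.723 to 1.12 for Srsf2 mutated cells. Which libraries entered the authors' fits is not given in the sources used here.

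Among 10891 other genes with a mean of at least 4 CPM, those with profiles most like the median profile of the 8 over the 10 libraries were Cebpa and Nkg7, with a root mean square difference of 0.068 each in centred log2 CPM, then Tanc1 (0.089), S100a1 (0.107) and Gstm1 (0.122). Nkg7 averaged 118 ± 2.65 CPM in double mutant, 152 ± 20.6 in Srsf2 mutated, 205 ± 13.2 in Setd2 knockout and 396 ± 24.1 in wild type cells. Among the 8 themselves, Ms4a3 (0.059) and Prtn3 (0.070) lay nearest the median profile, Mpo (0.138), Elane (0.160), Cst7 (0.185), Ctsg (0.220) and Prss57 (0.242) further off, and Ctsc (1.08) stood apart. Of the 10891 other genes 308 lay closer than 0.3, and 113 lay closer than Prss57, so the profile is not particular to the 8. Likeness is a description, since the libraries differ mainly by genotype.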

How the data were processed

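RNA-seq of 10 bulk libraries was analysed; 3 single-cell samples were not analysed here. Per the file headers, the 3 deposited tables give a read count per gene and library, FPKM, and a log2 fold change by the authors with error, p-value and adjusted p-value. The authors' test statistic and mean normalised count are a score each in the deposited tables, and the statistic was not used. The deposited FPKM equalled count over listed length and library total in 100.0% of values (within 0.1%). Per the submitters' processing notes, HISAT2 2.0.5, STAR 2.6.1a, HTSeq 0.9.1, featureCounts 2.0.1 and DESeq2 1.22.2 were among the tools, and mouse and human builds were named, without roles. The 5 libraries present in 2 tables were identical, so tables were joined on the Ensembl identifier; 27 symbols turned into dates were restored, and 0 columns of single samples were left over.

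Counts were filtered (filterByExpr, 19289 genes left), TMM-scaled and fitted in 1 quasi-likelihood model over the 10 libraries with edgeR 4.0.16 in R 4.3.3. The test was checked on simulated counts. Alternatives were other scalings and filters, the compared groups alone, DESeq2 1.42.0, a replicate block and each library left out. Running these on the gene lists and other named genes was added after seeing the data. Genes in short lists were all open to naming; from longer lists the 3 of smallest adjusted p per comparison, and up to 2 of the other direction, were. Neighbours were the nearest tested gene on each side and the 2 of largest change within 500 kb; the genes most like the median profile were ranked, and a few of each were taken up. The 8 genes and all lists were chosen with earlier results of these data known. Promoters are from RefSeq. Floors cover counting error only, because PCR copies of a molecule were not told apart.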

Additional observations from a re-analysis of the deposited data

Results flagged for a closer look

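The log2 fold change with Setd2 loss differed between mutated and wild type Srsf2 for 7 of the 8 genes in edgeR's interaction test. Among all tested genes 31.9% were called in it, 16.7% above 0 and 15.2% below. The difference of log2 fold changes was 0.74 for Ctsc, 0.69 for Ms4a3, 0.56 for Elane, 0.51 for Prss57, 0.46 for Prtn3, 0.45 for Cst7 and 0.32 for Mpo, against a median of -0.07 over all tested genes. With library totals in place of TMM factors 2 of the 8, Ctsc and Ms4a3, were called, and leaving out 1 library gave 4 to 8. Ctsc had a log2 fold change of 0.52 in double mutant against Srsf2 mutated cells and of -0.21 in Setd2 knockout against wild type cells, where its call did not hold. The other 6 were lower in both, and by less in the first. Late neutrophil and erythroid marker sums and sex-linked genes differed between genotypes beside these values. The late neutrophil sums of Srsf2 mutated and wild type libraries overlapped, but the single markers did not move together. Retnlg (3.01), Mmp8 (2.65), Mmp9 (1.65) and Cxcr2 (0.82) were higher in Srsf2 mutated cells on the log2 scale. Ngp (-0.47) and Lcn2 (-0.28) were lower, and Ltf and Camp were not called. The part of these markers and genes was not tested.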

How the results depend on the processing

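Of 864 values of the 8 genes in 6 comparisons of groups under other settings, 846 kept their direction and side of the threshold. Ctsc in Setd2 knockout against wild type became 0.0054 with library totals. In the interaction, 118 of 136 values kept both, and with library totals Ctsg became -0.044 and the count of the 8 genes called 2. With library totals Plppr3 became 0.21 in Setd2 knockout against wild type. With a stricter filter (10 CPM in 2 libraries), fewer genes were tested, and 7378 were called in double mutant and 6660 in Srsf2 mutated cells against wild type. Leaving out 1 library gave 4792 to 8803 genes called in Setd2 knockout against wild type, and 4 to 8 of the 8 genes in the interaction; the cause was not tested. Library totals moved the median log2 fold change of all tested genes by 0.22 in Setd2 knockout and 0.13 in Srsf2 mutated cells against wild type. Same-numbered libraries did not deviate together (correlations of -0.028 to 0.040). A replicate block called 7 of the 8 genes in the interaction, 6 in Srsf2 mutated against Setd2 knockout and 8 in each other comparison. DESeq2 changed no call among the 8 genes. Members had at least 1636 counts in a library, and groups held 2 or 3 libraries; which of these limits precision more was not compared.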

Other observations

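Of 147 tested genes within 500 kb of the 8, in double mutant cells against wild type 43 were higher and 44 lower, where 33.5% and 29.5% of all tested genes were. In Srsf2 mutated cells against wild type 37 were higher and 47 lower (28.5% and 27.8% of all), in Setd2 knockout cells 29 and 30 (18.7% and 19.9%), and in double mutant against Srsf2 mutated cells 35 and 28 (17.8% and 15.9%). On chromosome 10 lower calls were more frequent than higher ones in the comparisons with wild type, but not in double mutant against Srsf2 mutated cells. Of the 52 tested neighbours of Elane, most of them also neighbours of Prtn3 and Prss57, 9 were higher and 21 lower in Srsf2 mutated cells (median log2 fold change -0.26), 6 and 14 in Setd2 knockout cells, and 12 and 17 in double mutant cells, each against wild type, and 14 and 10 in double mutant against Srsf2 mutated cells. Mpo lies in a run of peroxidase genes with Lpo, lactoperoxidase, and Epx, eosinophil peroxidase. Epx averaged 239 ± 0.943 CPM in double mutant, 258 ± 7.61 in Srsf2 mutated, 58.7 ± 0.618 in Setd2 knockout and 324 ± 74.9 in wild type cells, so the Setd2 knockout had its lowest level, unlike for Mpo. Lpo averaged 1.38 ± 0.349, 1.64 ± 0.326, 6.24 ± 0.785 and 6.28 ± 0.866 CPM in the same order.

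Ctsg lies in the mast cell protease and granzyme cluster of chromosome 14. Its nearest tested neighbour on one side, Mcpt8, a protease of basophils, averaged 80.3 ± 3.49 CPM in double mutant, 212 ± 30.6 in Srsf2 mutated, 47.8 ± 1.23 in Setd2 knockout and 50.3 ± 1.10 in wild type cells. Gzmb, granzyme B, averaged 23.3 ± 3.13, 27.7 ± 1.72, 11.7 ± 0.520 and 3.69 ± 0.432 CPM. Both were higher in Srsf2 mutated cells than in wild type (log2 fold changes 2.07 and 2.91), where Ctsg was lower (-0.86). Ms4a2, a subunit of the high-affinity IgE receptor and the nearest tested neighbour of Ms4a3 on one side, averaged 21.7 ± 0.528, 51.8 ± 2.51, 29.5 ± 3.46 and 20.8 ± 0.00248 CPM, higher by 1.31 on the log2 scale in Srsf2 mutated cells, where Ms4a3 fell by 1.41. Rab38, a small GTPase gene near Ctsc, fell by 1.39 in double mutant cells against wild type, where Ctsc was higher by 1.02.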
